A study of Homo sapiens with 6 samples.

Results

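The genes described here keep the endoplasmic reticulum (ER) able to fold secreted and membrane proteins. They are the ER chaperones, the disulfide isomerases, the translocon, the degradation machinery and the sensors of the unfolded protein response. The list held 37 names and was matched to gene symbols of the deposited table, which gave 36 genes of 19669. The name SELENOK_none matched no row, and no other member was lost. All 36 were above 0 in every library, 35 of them at 1 unit or more and 26 at 10 units or more in all 6 libraries.

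The cells were 786-O, an established clear cell renal carcinoma line without functional VHL, and every group shares that background. The libraries carry 3 labels, EV for empty vector, WT and MT. Each label has a single RNA-seq library and a single Ribo-seq library, the latter made from mRNA fragments that ribosomes shield from nuclease. The series title names PHYHD1-WT and, for MT, PHYHD1 without the segment 107 to 130, while the design text calls WT untreated and MT an overexpression of PHYHD1. PHYHD1, a member of the phytanoyl-CoA dioxygenase family, stood at 0.092, 118 and 110 FPKM and at 0, 222 and 905 TPM in EV, WT and MT, so the library labelled WT carried it too, and the labels are kept as deposited. The sources used here do not give the promoter of the vector or whether the lines are clonal. They name 3 dishes per condition without saying whether these were pooled. Cycloheximide at 100 µg/ml was added before lysis for Ribo-seq. Because nothing is replicated, differences carry neither an error nor a p-value, and each one compares libraries.

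Values per gene are FPKM in RNA-seq and TPM in Ribo-seq, both scaled to gene length and library. Differences are given on the log2(value + 1) scale, and a gene is called past the 2-fold rule at an absolute difference of 1 or more. A smaller rule, a difference of 0.3 or more with 10 units or more in both labels, is used to describe the abundant members. Both are rules of size and not tests. Of the 9 markers of the renal line, PAX8 stood at 75.9 to 94.0 FPKM and VIM at 1746 to 1911 FPKM. KRT8 had 208, 224 and 195 FPKM in EV, WT and MT, KRT18 84.4, 99.0 and 77.7 and EPAS1 16.6, 16.5 and 12.1. CDH6 was uneven, at 61.5, 40.0 and 75.6 FPKM. PAX2 (7.76, 7.65 and 8.54 FPKM) and LHX1 (5.25, 6.87 and 7.12) were lower, and MME was near 1 unit (1.72, 2.06 and 0.797). Of the markers of other cell types, CD3E, PECAM1 and VWF were listed at 0 in all libraries and PTPRC reached at most 0.071 FPKM and EPCAM 0.363 FPKM. CD68, a lysosomal protein best known from macrophages, was not near 0, at 5.47, 9.02 and 6.19 FPKM in EV, WT and MT with 0.620, 0.593 and 0.803 TPM. The fibroblast markers COL1A1 (0.449, 1.54 and 0.536 FPKM) and PDGFRB (0.783, 1.07 and 0.227 FPKM) were low. CD68, COL1A1 and PDGFRB were each highest in WT mRNA, and their part in any result was not tested. Read totals are unknown, and a value near 1 TPM rests on few reads, since genes above 0 in a single Ribo-seq library had medians of 0.117 to 0.148 TPM.

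As background, proteins enter the ER through the SEC61 translocon and are folded by BiP (HSPA5), GRP94 (HSP90B1), the lectins calnexin and calreticulin and the protein disulfide isomerases. Proteins that fail to fold are returned to the cytosol and degraded. Overload is sensed by IRE1 (ERN1), PERK (EIF2AK3) and ATF6. IRE1 splices XBP1 mRNA, PERK phosphorylates the initiation factor eIF2alpha and so favours translation of ATF4, and ATF6 is cut in the Golgi by the proteases MBTPS1 and MBTPS2. Spliced XBP1 and cleaved ATF6 induce most of the chaperone genes through the ER stress response element (ERSE) and its variant ERSE-II.

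Those elements are printed because they link many of the members by sequence and allow the mRNA differences to be set out by promoter. RefSeq promoter windows (GRCh38.p14, 250 bases before to 50 after a gene's start) were available for 34 members, and PDIA3 and DERL1 had no entry. The motifs searched on both strands were CCAAT and CCACG with 9 bases N between them (ERSE), ATTGG and CCACG with 1 base N between them (ERSE-II) and TGACGTGG (UPRE, a site bound by XBP1). ERSE was found in the windows of 8 members, against 0.137% of 15335 genes of the table with a window, and ERSE-II in 3 members, against 0.0978%. Altogether 11 of 34 members (32.4%) held one or the other, and these were 11 (30.6%) of the 36 genes of the table that did. Counted over all 35116 windows, 0.131% held either element. UPRE was in the windows of HYOU1, DNAJC10 and SEC62 and of 1.07% of genes. In HYOU1 it overlaps the upstream ERSE-II. ERSE was first defined in promoters of such chaperones, so its frequency among them is a description. A match describes letters in the window and is not evidence of binding. The stretches below are written 5′ to 3′ on the gene's strand, with the match in capitals and up to 10 bases on either side. Matches on the other strand therefore appear as the reverse complement.
HSPA5: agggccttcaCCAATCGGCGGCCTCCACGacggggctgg, ERSE at chr9:125241381-125241419, minus strand.
HSP90B1: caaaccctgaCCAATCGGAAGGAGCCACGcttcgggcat, ERSE at chr12:103930206-103930244, plus strand.
HSP90B1: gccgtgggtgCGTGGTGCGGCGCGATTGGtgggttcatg, ERSE at chr12:103930311-103930349, plus strand.
CALR: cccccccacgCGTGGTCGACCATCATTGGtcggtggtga, ERSE at chr19:12938374-12938412, plus strand.
CANX: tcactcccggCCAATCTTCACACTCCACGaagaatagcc, ERSE at chr5:179698768-179698806, plus strand.
PDIA6: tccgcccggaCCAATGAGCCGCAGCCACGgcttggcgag, ERSE at chr2:10812843-10812881, minus strand.
XBP1: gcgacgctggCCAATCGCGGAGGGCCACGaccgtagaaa, ERSE at chr22:28800593-28800631, minus strand.
CRELD2: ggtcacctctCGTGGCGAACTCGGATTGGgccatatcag, ERSE at chr22:49918544-49918582, plus strand.
ERO1B: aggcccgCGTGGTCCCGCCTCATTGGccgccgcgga, ERSE at chr1:236282173-236282208, minus strand.
HYOU1: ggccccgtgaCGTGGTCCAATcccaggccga, ERSE-II at chr11:119057370-119057400, minus strand.
HYOU1: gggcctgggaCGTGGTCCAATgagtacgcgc, ERSE-II at chr11:119057264-119057294, minus strand.
SDF2L1: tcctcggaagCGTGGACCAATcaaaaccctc, ERSE-II at chr22:21642104-21642134, plus strand.
HERPUD1: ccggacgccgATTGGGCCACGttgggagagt, ERSE-II at chr16:56932015-56932045, plus strand.

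The members covered a wide range of abundance that was alike in the 3 labels. Together they made up 0.867%, 0.893% and 0.866% of the RNA-seq values and 0.870%, 0.856% and 0.872% of the Ribo-seq values in EV, WT and MT. Calreticulin (CALR), a calcium-binding lectin that retains unfinished glycoproteins, had the highest mRNA, at 613, 650 and 640 FPKM. Next in EV came the membrane-bound lectin calnexin (CANX) at 493 FPKM, the isomerase P4HB at 445, GRP94 (HSP90B1) at 393, PDIA3 at 391 and BiP (HSPA5) at 337 FPKM. ERN1 was the lowest, at 1.10, 1.30 and 1.52 FPKM, and was also the lowest in Ribo-seq, at 0.864, 0.365 and 1.04 TPM. In bulk libraries a lower share of cells carrying an mRNA and less mRNA per cell cannot be told apart.

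**Figure D1:**
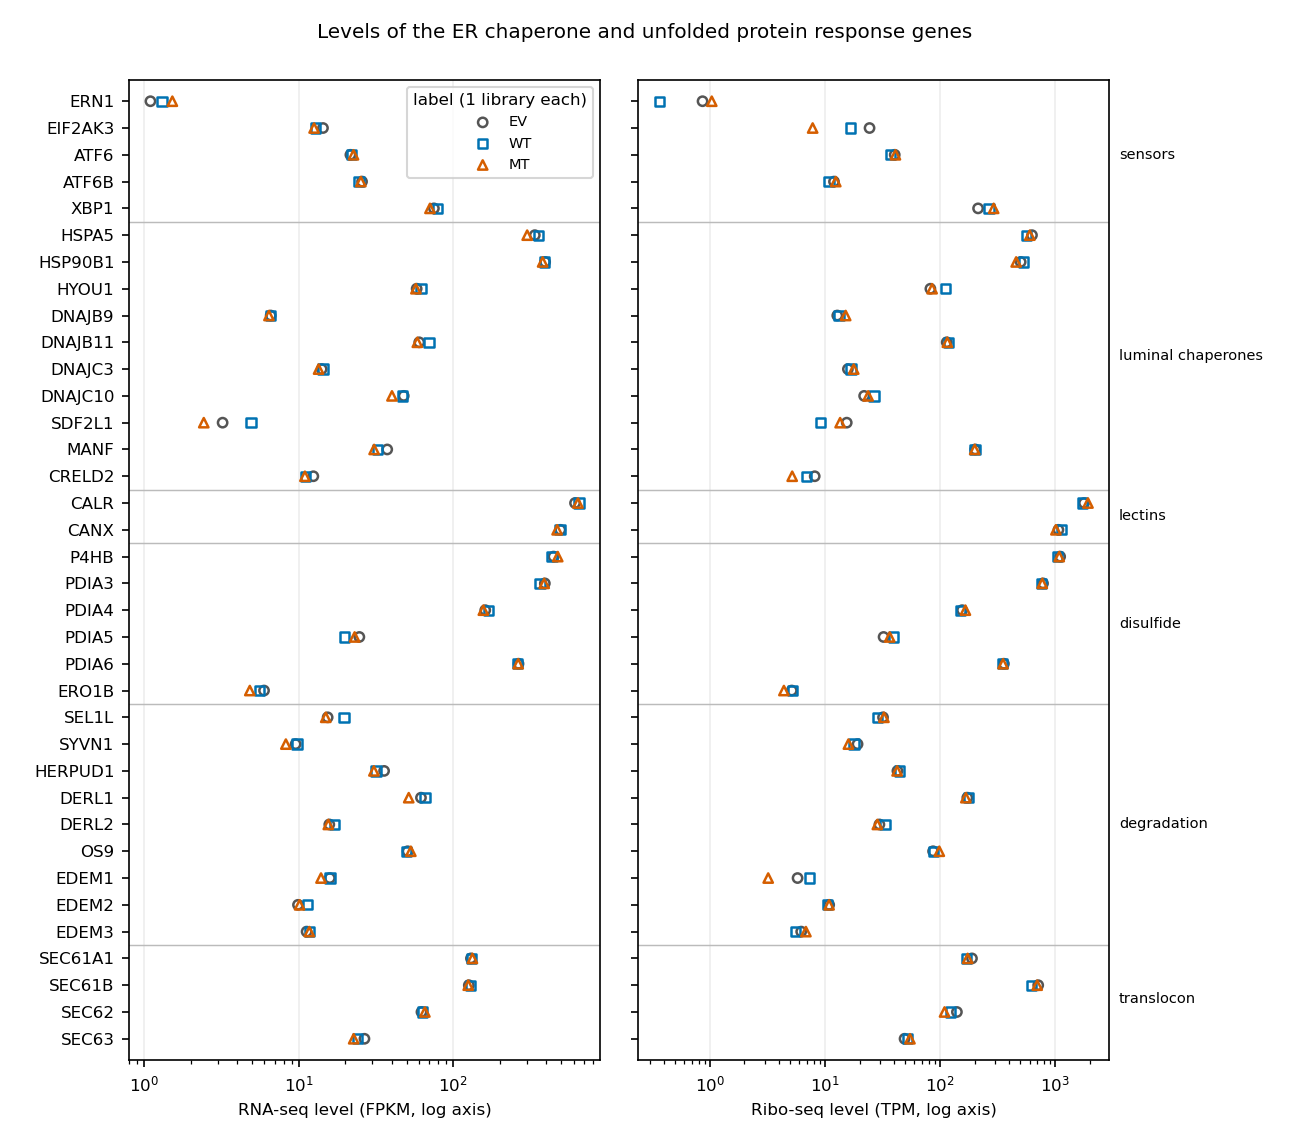
Level of each of the 36 members in the EV, WT and MT libraries, FPKM for RNA-seq and TPM for Ribo-seq on log axes, with members grouped by role and 1 point per library. Points of 1 gene lie close together for most members; EIF2AK3, ERN1, SDF2L1 and EDEM1 spread most in Ribo-seq.

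In mRNA no member passed the 2-fold rule in any comparison. WT over EV had 0 of 36 members past it, against 0.499% of all genes, MT over EV 0 of 36 (0.29% of genes) and WT over MT 0 of 36 (0.508% of genes). At such shares a count of 0 does not set the members apart from other genes. The largest mRNA difference of a member was 0.78, for SDF2L1 in WT over MT, at 4.91 and 2.43 FPKM. WT and MT were both compared with the same EV library. The members' median difference was 0.02 for WT over EV, -0.04 for MT over EV and 0.06 for WT over MT, beside medians of -0.01, -0.01 and 0.00 over all genes. In WT over EV 20 of 36 members were above 0, against 48.9% of genes. In MT over EV 9 of 36 were above 0, against 48.7%, and in WT over MT 26 of 36, against 51%.

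Under the smaller rule, 1 of 30 members differed in mRNA between WT and EV, against 8.64% of genes, 0 of 30 between MT and EV, against 5.64%, and 2 of 31 between WT and MT, against 8.45%. These shares are below the background, so the members that pass are given as values. SEL1L, the adaptor that feeds substrates to the ubiquitin ligase SYVN1, had 15.4, 19.6 and 15.0 FPKM in EV, WT and MT. It was highest in WT, by 0.33 over EV and by 0.37 over MT. Its footprints were 32, 28.8 and 32.6 TPM and thus lowest in WT. DERL1, a channel component of the same degradation complex, had 61.8, 65.7 and 51.5 FPKM, and WT exceeded MT by 0.35. Its footprints were 173, 176 and 168 TPM.

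In Ribo-seq 1 member passed the 2-fold rule. WT over EV had 0 of 35 (3.36% of all genes), MT over EV 1 of 36 (2.83%) and WT over MT 0 of 36 (3.19%). Median differences were -0.03, -0.01 and -0.03, beside 0.03, 0.01 and 0.01 over all genes. The members above 0 numbered 16 of 35 in WT over EV, against 53.4% of genes, 16 of 36 in MT over EV, against 52.1%, and 16 of 36 in WT over MT, against 51.6%. Under the smaller rule 3 of 30 members differed between WT and EV (25.6% of genes), 2 of 30 between MT and EV (16.5%) and 1 of 29 between WT and MT (23.1%), all shares below the background.

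**Figure D2:**
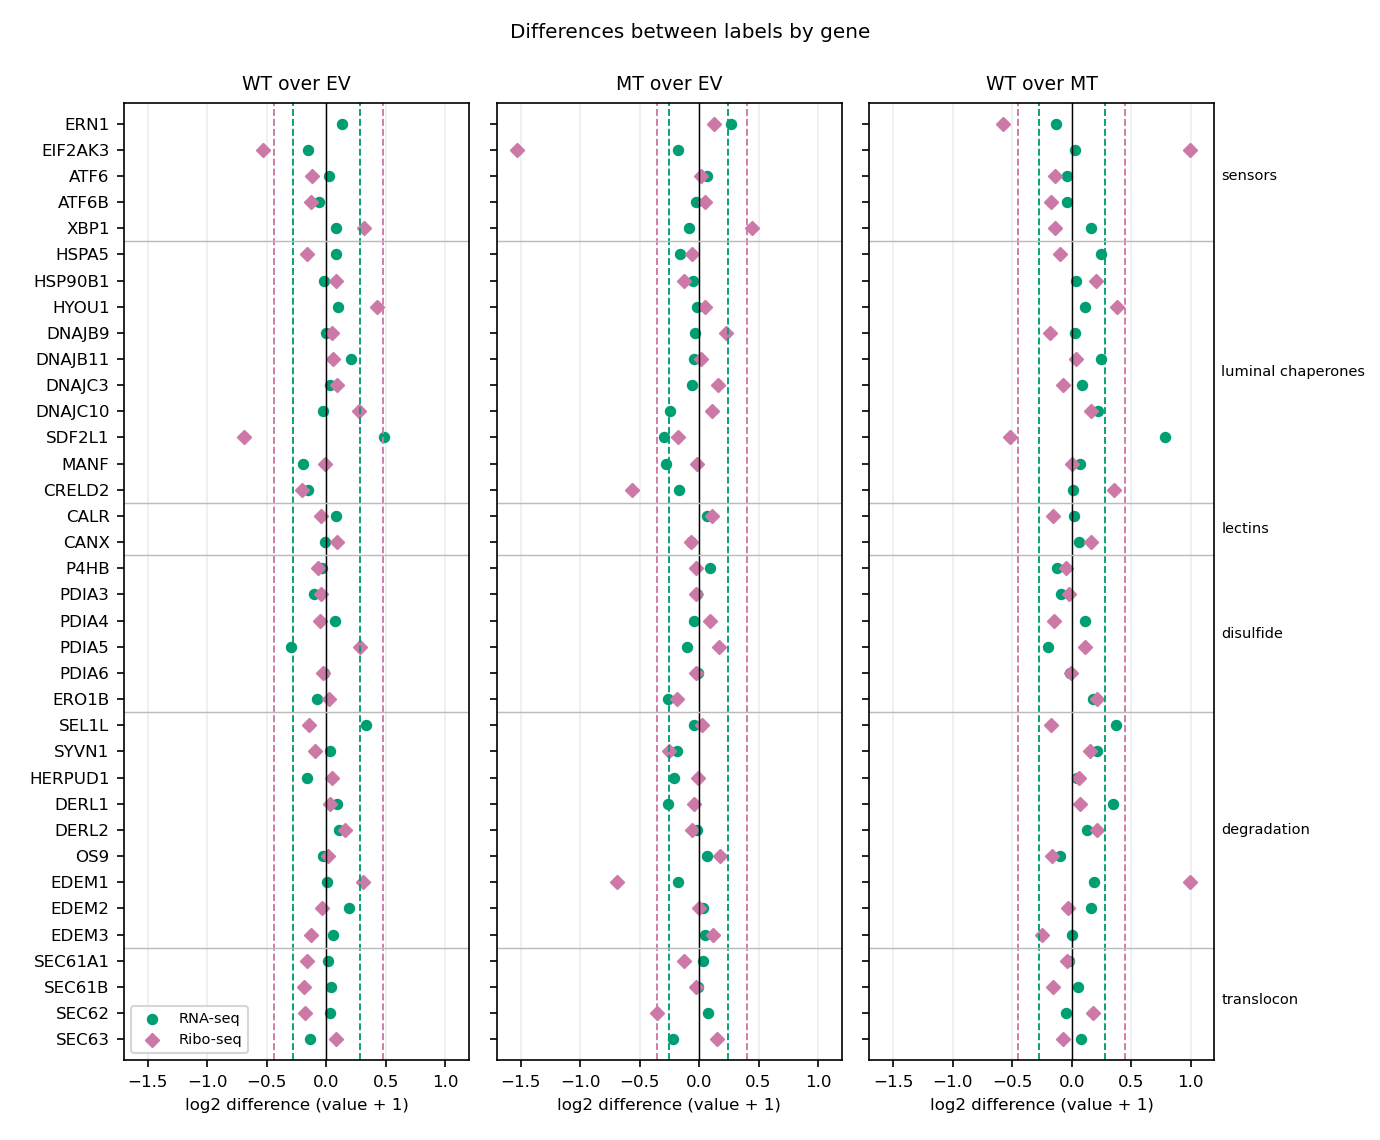
Difference of each member on the log2(value + 1) scale in the 3 comparisons, circles for RNA-seq and diamonds for Ribo-seq; dashed lines of the same colours mark the percentiles 5 and 95 of all genes at 10 units or more in both labels. Most members lie between the lines, and EIF2AK3 in MT over EV lies farthest below, at -1.53 in Ribo-seq. At 7.83 TPM in MT it is not among the genes that set that line, at -0.35. Over all genes compared the percentile 5 was -0.56.

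Among the stress sensors and their transcription factor, EIF2AK3 differed most. EIF2AK3 (PERK) is the kinase that attenuates translation when unfolded proteins collect in the ER. It had 24.4, 16.6 and 7.83 TPM in EV, WT and MT, while its mRNA was 14.4, 12.8 and 12.6 FPKM. Its footprints were thus lowest in MT and intermediate in WT, against mRNA values that lay close together. The Ribo-seq difference was -1.53 for MT over EV, a value at or below which 0.168% of genes lay, -0.53 for WT over EV and 0.996 for WT over MT, just under the rule. The mRNA differences were -0.18, -0.15 and 0.03 in the same order. The MT footprint value is under 10 TPM, so the smaller rule does not cover EIF2AK3 in Ribo-seq comparisons with MT.

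XBP1, the transcription factor whose mRNA IRE1 splices, stood higher in footprints than EV in both other labels. It had 214, 266 and 293 TPM, and its mRNA was 74.9, 79.4 and 70.6 FPKM. The Ribo-seq differences were 0.31 for WT over EV and 0.45 for MT over EV, and the mRNA differences 0.08 and -0.08. Gene-level values do not separate spliced from unspliced XBP1.

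ATF6 and its paralog ATF6B were nearly level. ATF6 had 21.6, 21.9 and 22.6 FPKM and 40.4, 37.1 and 41.0 TPM. ATF6B had 25.7, 24.5 and 25.2 FPKM and 12.0, 10.9 and 12.4 TPM. ERN1 was higher in MT than in EV mRNA by 0.27, and its Ribo-seq difference of -0.58 for WT over MT was the lowest of the members in that comparison. It stood near 1 unit in both assays, where few reads decide the value, and was not compared in Ribo-seq between WT and EV because both libraries were below 1 TPM.

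The 10 genes grouped here as luminal HSP70 and HSP90 chaperones and cofactors were slightly lower in mRNA in MT. That group includes CRELD2, a disulfide isomerase-like protein, at -0.17 for MT over EV and 0.02 for WT over MT. All 10 were below EV, with a median of -0.11 and a range from -0.30 (SDF2L1) to -0.02 (HYOU1), where 48.7% of all genes were above EV. All 10 were higher in WT than in MT, by a median of 0.10, as were 51% of all genes. Other roles leaned the same way in part. Of the degradation genes, 8 of 9 were higher in WT than in MT, with a median of 0.16. That count was 7 of 9 after centring on all genes or scaling to upper quartiles. In MT 6 of 9 were lower than in EV, with a median of -0.04. Of the isomerases and oxidases, 5 of 6 were lower in MT than in EV, with a median of -0.03. But 5 of 6 were also lower in WT than in EV, with a median of -0.06, and 4 of 6 were lower in WT than in MT. The luminal counts for MT over EV and WT over MT were the same under every scaling tried, and no single difference passed the 2-fold rule. For the luminal genes WT over EV gave 5 of 10 above 0, with a median of 0.01. The 3 comparisons rest on the same libraries and are not separate observations. Summed over the 10 genes the mRNA was 969, 993 and 899 FPKM in EV, WT and MT. Among the pathway lists below, 14 of 19 oxidative folding enzymes and 9 of 12 PERK and ATF4 genes were also under EV in MT. Both medians were -0.08. The other degradation genes (13 of 17) and the cytosolic and mitochondrial chaperones (12 of 15) were mostly above it. In WT over MT 13 of 15 of those chaperones (median 0.13) and 9 of 12 PERK and ATF4 genes (0.19) were higher. The lean was thus not particular to the luminal genes.

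BiP (HSPA5), the HSP70 that also holds the sensors inactive, had 337, 357 and 301 FPKM and 630, 563 and 604 TPM. Its mRNA was highest in WT and lowest in MT, while its footprints were highest in EV. GRP94 (HSP90B1) had 393, 388 and 378 FPKM and 503, 530 and 459 TPM, so that its mRNA and its footprints were both lowest in MT.

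HYOU1, a large HSP70 relative that acts as a nucleotide exchange factor for BiP and whose window holds 2 ERSE-II matches, had 82.6, 111 and 85.4 TPM. It stood higher in WT, by 0.43 over EV and by 0.38 over MT, with mRNA at 58.0, 61.9 and 57.3 FPKM. SDF2L1, a cofactor of BiP with an ERSE-II match, differed in opposite directions in the 2 assays. Its mRNA was 3.22, 4.91 and 2.43 FPKM, highest in WT, and its footprints were 15.5, 9.18 and 13.6 TPM, lowest in WT. The differences for WT over EV were 0.49 in mRNA and -0.69 in footprints, and those for WT over MT 0.78 and -0.52. At mRNA levels below 5 FPKM its values move with the added constant.

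The J-domain proteins, which bring substrates to BiP, stayed close. DNAJB11 had 60.2, 69.8 and 58.5 FPKM and 114, 119 and 116 TPM. DNAJC10, which also reduces disulfides of degradation substrates, had 47.8, 46.9 and 40.1 FPKM and 21.9, 26.7 and 23.8 TPM. It thus combined its lowest mRNA, in MT, with footprints slightly above EV. DNAJB9 and DNAJC3 differed by at most 0.23 in either assay.

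MANF, a secreted ER stress protein, had 37.4, 32.4 and 30.7 FPKM, while its footprints stayed between 200.3 and 202 TPM. CRELD2, a disulfide isomerase-like protein with an ERSE match, had 12.4, 11.1 and 11.0 FPKM and 8.15, 6.92 and 5.20 TPM, and was lowest in MT in both assays. Its Ribo-seq difference of -0.56 for MT over EV is between values under 10 TPM.

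The lectin chaperones and isomerases carried most of the members' RNA and were mostly level. CALR had 1788, 1735 and 1934 TPM and CANX 1070, 1140 and 1018 TPM. P4HB, PDIA3, PDIA4 and PDIA6, which form and exchange disulfide bonds, differed by at most 0.15 in every comparison of either assay. PDIA5 had 24.7, 19.9 and 23.0 FPKM and 32.4, 39.6 and 36.6 TPM, so that WT had the lowest mRNA and the highest footprints. ERO1B, an oxidase that recharges P4HB, stayed between 4.40 and 5.97 units in all libraries.

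The degradation genes were mostly level in footprints. EDEM1, a mannose-trimming factor that marks glycoproteins for disposal, had 5.79, 7.38 and 3.22 TPM with 15.9, 16.0 and 13.9 FPKM. WT exceeded MT by 0.99 in footprints, just under the 2-fold rule, at values below 10 TPM. EDEM2 and EDEM3 differed by at most 0.25 in either assay. SYVN1, the ligase, had 9.55, 9.74 and 8.26 FPKM and 19.2, 17.9 and 16.0 TPM, lowest in MT in both. HERPUD1, which organises the ligase complex, had 35.7, 31.7 and 30.6 FPKM and 42.7, 44.2 and 42.4 TPM. DERL2 and the lectin OS9 differed by at most 0.21 in either assay.

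Of the 4 translocon genes, SEC62 differed most in footprints. SEC62, which helps short secretory proteins into the channel, had 140, 124 and 110 TPM, with mRNA at 62.2, 63.5 and 65.5 FPKM. The difference for MT over EV was -0.35 in footprints and 0.07 in mRNA. SEC63, its partner and a J-domain protein, ran the other way, at 49.2, 52.1 and 54.8 TPM with 26.6, 24.0 and 22.7 FPKM. The channel subunits SEC61A1 and SEC61B differed by at most 0.18, both slightly lower in WT footprints than in EV.

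**Figure D3:**
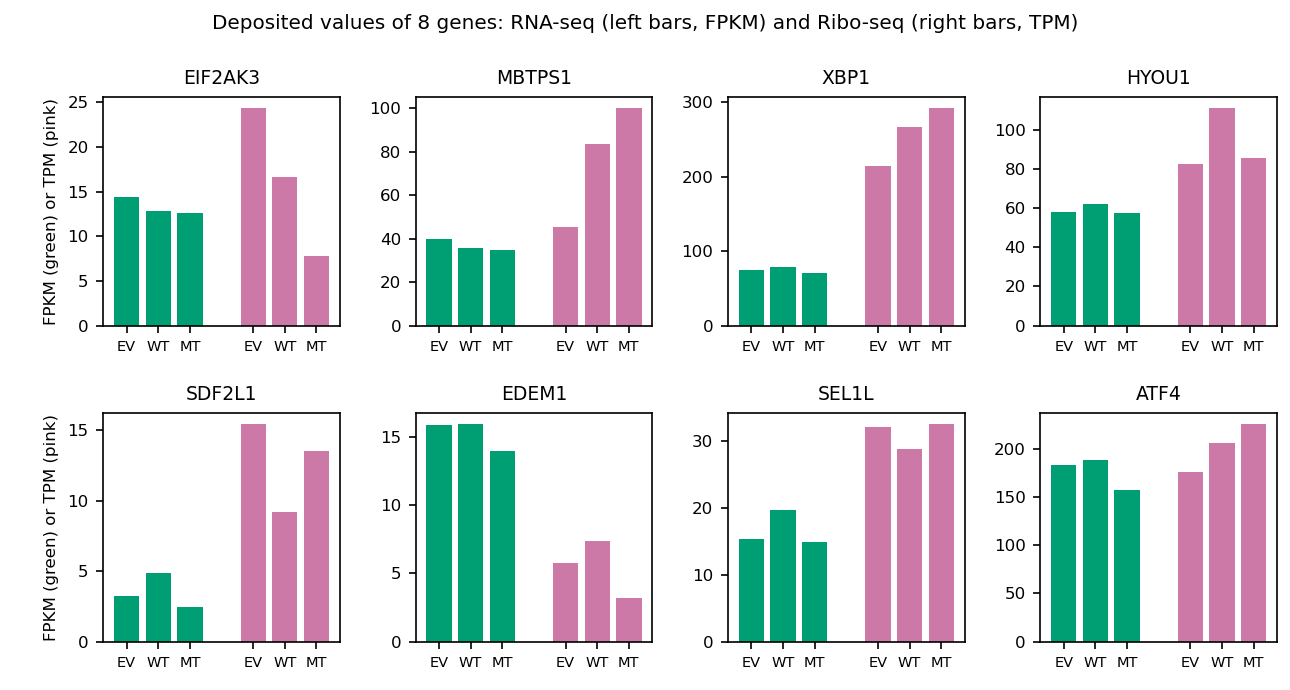
Deposited values of 8 genes in EV, WT and MT as bars from 0, RNA-seq in FPKM on the left of each panel and Ribo-seq in TPM on the right, with 1 bar per library and no error bars. EIF2AK3 footprints descend from 24.4 to 7.83 TPM between EV and MT while its mRNA stays between 12.6 and 14.4 FPKM.

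Footprint change relative to mRNA change, taken as the Ribo-seq minus the RNA-seq log2 difference, is called TE (translational efficiency). In TE 1 of 35 members passed the 2-fold rule for WT over EV (4.21% of all genes), 1 of 36 for MT over EV (3.51%) and 1 of 36 for WT over MT (4.82%). Those were SDF2L1 at -1.18, EIF2AK3 at -1.35 and SDF2L1 at -1.30. The SDF2L1 calls ended with a constant of 5 in place of 1, at -0.80 in both, and with the Ribo-seq labels WT and MT swapped, at -0.67 and -0.27. With a minimum of 10 units SDF2L1 is not compared. The EIF2AK3 call ended under the same swap, at -0.35, where WT over EV reached -1.37. Members above 0 numbered 16 of 35 in WT over EV (53.7% of genes), 20 of 36 in MT over EV (52%) and 14 of 36 in WT over MT (50.8%).

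Under the smaller rule 5 of 27 members differed in TE for WT over EV (32.9% of genes), 4 of 26 for MT over EV (24.3%) and 4 of 27 for WT over MT (32.6%). For WT over EV they were PDIA5 at 0.58, HYOU1 at 0.33, DNAJC10 at 0.30, EIF2AK3 at -0.38 and SEL1L at -0.48. With the Ribo-seq labels swapped HYOU1 stood at -0.04. For MT over EV they were XBP1 at 0.53, SEC63 at 0.38, DNAJC10 at 0.36 and SEC62 at -0.43. For WT over MT they were PDIA5 at 0.31, XBP1 at -0.30, HSPA5 at -0.35 and SEL1L at -0.54. Every one of these shares was below the share of all genes.

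Across members the mRNA and footprint differences were weakly related. Pearson's r was -0.29 over 35 members for WT over EV, 0.28 over 36 for MT over EV and -0.07 over 36 for WT over MT, as descriptions over genes of the same libraries. Spearman's rho over the members was -0.06, 0.26 and 0.15 in the same order. Over all genes Pearson's r was 0.01, 0.05 and -0.13. Both assays had the same sign in 14 of 35, 21 of 36 and 22 of 36 members, beside 48.8%, 48.9% and 47.1% of all genes.

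Within a label, dividing the Ribo-seq level by the RNA-seq level gives a ratio that is read as an order, because the 2 assays use different units. The gene length used in each assay is not given, and its part in this order was not tested. Among genes at 1 unit or more in both assays, the members had median ratios of 1.85, 1.71 and 1.74 in EV, WT and MT, beside 1.10, 1.13 and 1.11 over all genes. Of the members, 28 of 35, 27 of 35 and 26 of 36 lay above the median of all genes, where 50% lie by definition. Among genes at 10 units or more the counts were 18 of 27, 18 of 28 and 18 of 27, with medians of 1.87, 1.74 and 1.84 beside 1.44, 1.42 and 1.43, again against 50%. SEC61B (5.67), MANF (5.42) and SDF2L1 (4.81) had the highest ratios in EV, and EDEM1 (0.364), DNAJC10 (0.459) and ATF6B (0.467) the lowest.

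**Figure D4:**
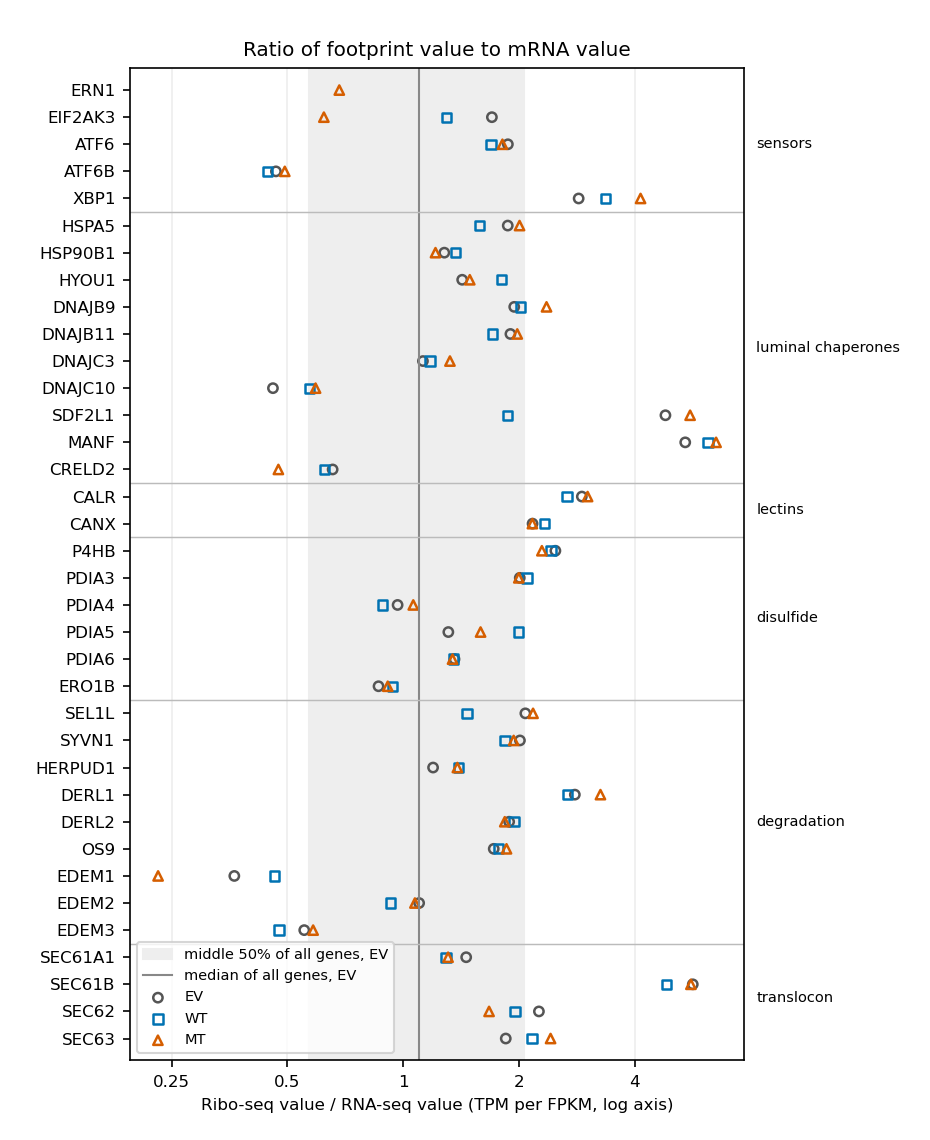
Ratio of the Ribo-seq value (TPM) to the RNA-seq value (FPKM) of each member in EV, WT and MT on a log axis, where the line is the median and the shaded band the middle 50% of all genes in EV. SEC61B and MANF lie at the top in all 3 labels and EIF2AK3 shifts from 1.70 in EV to 0.622 in MT.

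The differences were also set out by promoter. Members with ERSE or ERSE-II were more abundant, with EV medians of 74.9 FPKM and 214 TPM, beside 24.7 FPKM and 32 TPM for those with neither. HSPA5, HSP90B1, HYOU1, SDF2L1 and CRELD2 carry an element and are also among the luminal genes above. The split by promoter thus partly repeats the luminal counts. In mRNA for MT over EV 1 of 11 members with ERSE or ERSE-II was above 0 (CALR), with a median of -0.08, and 8 of 23 without were, with a median of -0.03. For WT over MT the counts were 10 of 11, with a median of 0.06, and 15 of 23, with a median of 0.05. For WT over EV they were 5 of 11 (-0.01) and 14 of 23 (0.02). In Ribo-seq 6 of 11 with an element and 9 of 22 without were above 0 for WT over EV, with medians of 0.03 and -0.04. For MT over EV they were 3 of 11 and 13 of 23, with medians of -0.06 and 0.02, and for WT over MT 6 of 11 and 9 of 23, with medians of 0.06 and -0.04. Among all genes the shares above 0 in these comparisons were 48.9%, 48.7% and 51% in mRNA for WT over EV, MT over EV and WT over MT, and 53.4%, 52.1% and 51.6% in Ribo-seq. EIF2AK3, whose footprints differed most, had none of the 3 motifs in its window, while XBP1 carries the ERSE printed above.

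**Figure D5:**
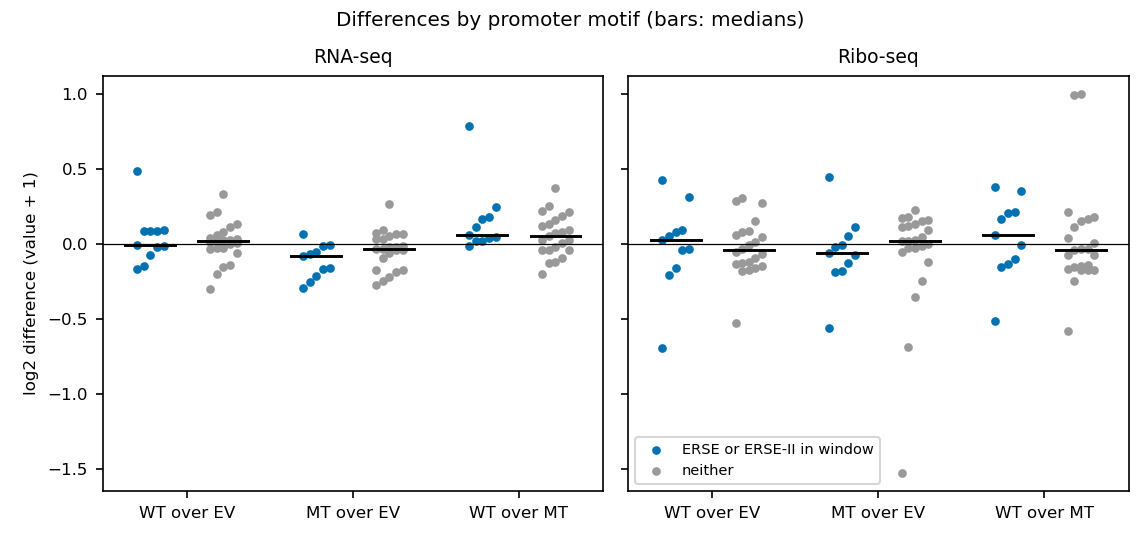
RNA-seq and Ribo-seq differences on the log2(value + 1) scale of members whose RefSeq promoter window holds ERSE or ERSE-II (11 genes) and of members with neither (23 genes), 1 point per gene and a bar at each median. In RNA-seq for MT over EV 1 of the 11 lies above 0, and the ranges of both sets overlap in all 3 comparisons.

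The rest of the pathway was described with 7 lists of 117 genes. No gene of any list passed the 2-fold rule in mRNA, where 0.29% to 0.508% of all genes did. In Ribo-seq 1 did, for MT over EV, where 2.83% of all genes did. That gene was MBTPS1, the site-1 protease that makes the first cut in ATF6. It had 45.3, 83.5 and 100.3 TPM in EV, WT and MT, with mRNA at 39.9, 35.6 and 34.7 FPKM. Its Ribo-seq difference was 0.87 for WT over EV and 1.13 for MT over EV, and its TE 1.03 and 1.33. Of all genes, 4.21% and 3.51% passed the rule in TE in these comparisons. The TE for WT over EV was 0.96 with a constant of 5, 0.99 after centring on the median of all genes and 0.998 after scaling to upper quartiles, all under the rule. Its footprints were thus lowest in EV, where those of EIF2AK3 were highest. MBTPS2, the second protease, had 16.6, 22.6 and 18.0 TPM.

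In the PERK and ATF4 arm 0 of 12 genes passed the 2-fold rule in either assay. Over all genes the shares were 0.29% to 0.508% in mRNA and 2.83% to 3.36% in Ribo-seq. ATF4, the transcription factor whose translation PERK activity favours, had 183, 188 and 157 FPKM and 176, 206 and 226 TPM. Its mRNA was thus lowest and its footprints highest in MT. TRIB3, a target of ATF4, had 43.1, 38.4 and 34.9 FPKM and 40.8, 37.4 and 31.4 TPM, lowest in MT in both assays. DDIT3 (CHOP), chosen after its values were seen, had 5.99, 9.84 and 9.19 TPM with 11.8, 13.6 and 11.7 FPKM. The list's median Ribo-seq difference was 0.06 for WT over EV and -0.09 for MT over EV.

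In the other 5 lists the examples were as follows. Among 20 oxidative folding enzymes TXNDC11 passed the 2-fold rule in TE for MT over EV, at 1.27, with 2.97, 6.06 and 6.88 TPM, where 3.51% of all genes did. With a constant of 5 it was at 0.80, no longer past the rule. The oligosaccharyltransferase subunits RPN1 and RPN2 had 289, 222 and 262 TPM and 362, 311 and 338 TPM, both lowest in WT. VCP, the ATPase that extracts degradation substrates, had 136, 153 and 150 FPKM and 103, 133 and 114 TPM, and UBXN4, its ER-membrane recruiter, 71.7, 69.0 and 76.3 FPKM. SRP9, a signal recognition particle subunit, had 278, 278 and 291 FPKM and TRAM1, a translocon partner, 278, 271 and 315 FPKM. The cytosolic and mitochondrial chaperones had a median mRNA difference of 0.28 for WT over EV with 13 of 15 above 0 (48.9% of all genes), and 0.10 for MT over EV with 12 of 15 (48.7%). HSP90AB1 in that list had 843, 959 and 882 FPKM and HSPA8 676, 893 and 777 FPKM, both highest in WT, where the ER member HSPA5 differed from EV by 0.08. Footprints were 189, 250 and 196 TPM for HSP90AB1 and 445, 436 and 447 TPM for HSPA8. For WT over EV the list's median was 0.08 in Ribo-seq with 8 of 15 above 0 (53.4% of all genes). In TE it was -0.23 with 4 of 15 above 0 (53.7%).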

How the data were processed

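RNA-seq and Ribo-seq libraries of 786-O cells with 3 labels were analysed, 1 library per label and assay. The deposited RNA-seq values were read as FPKM (they sum to 459938 to 469859 per library) and the deposited Ribo-seq values as TPM (they sum to 1000000); the file header does not name the unit. Human genome build 18 is named in the submitters' processing notes. For the aligner, counter, annotation, strand setting and treatment of reads shared by several genes: not given in the sources used here. Ribosome footprints came from RNase I digestion with depletion of rRNA by antisense DNA probes, per the labels' protocols. Of 20307 table rows, 605 without a gene name (0.153 to 0.158% of RNA-seq and 0.513 to 0.564% of Ribo-seq values) and 7 symbols on several rows were left out, which kept 19669 genes. The table gives neither counts nor read depth, and no interval is given.

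Differences were taken as log2(value + 1), for genes that reached 1 unit in either library. TE also needed 1 unit in each assay. Every member is named, and those past the 2-fold rule or past 0.3 with 10 units in both labels are given in each library. Of each pathway list the genes past the 2-fold rule are named or, with none, the 2 most abundant. DDIT3 and MBTPS2 are named outside this rule. Members and lists were chosen with earlier results of these data known. The scripts that compute differences and calls were tested on simulated data. Alternatives were the added constant, the minimum level, 3 scalings and an exchange of WT and MT in Ribo-seq. Counts above 0 and the values of pathway genes under each alternative were added after seeing the data. Promoter sequences are from RefSeq (GRCh38.p14) and were used for letters alone, since the table gives no coordinates. Python 3.11.15, pandas 2.3.3, numpy 2.4.6 and matplotlib 3.10.9 were used.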

Additional observations from a re-analysis of the deposited data

How the results depend on the processing

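Counts of members past the 2-fold rule and the members' medians were recomputed under 7 other settings, and for TE also with WT and MT exchanged in Ribo-seq. A value was taken to hold within 0.1 on the log2 scale, or a count within 1.5 times. The members' medians are themselves smaller than 0.1, so that tolerance says nothing of their stability; in TE for MT over EV the median went from 0.061 to 0.0012 with exchanged labels. No value past the 2-fold rule turned its direction; of those past 0.3, HYOU1 in TE for WT over EV went from 0.33 to -0.04 with exchanged labels. The share of all genes past the rule under these settings is not given, so the counts below have no background beside them. With 0.1 added in place of 1 the count was 3 in Ribo-seq for WT over MT (ERN1, EIF2AK3 and EDEM1) and 3 in TE for WT over MT (ERN1, EIF2AK3 and SDF2L1). With 5 added, or with a minimum of 10 units, the count was 0 in TE for WT over EV and 0 in TE for WT over MT. With the exchanged labels it was 0 in TE for MT over EV and 2 in TE for WT over MT (EIF2AK3 and EDEM1), and EIF2AK3 in TE for WT over MT went from 0.97 to -1.02. The exchange turns the sign of the Ribo-seq difference for WT over MT by construction, so that last change follows from the setting. Whether labels had been exchanged was not tested. Scaling to upper quartiles, to sums without mitochondrially encoded and histone genes, or to the median of all genes moved no count of calls.

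Low values rest on few reads, as for ERN1 in both assays, SDF2L1 in mRNA and EDEM1 in footprints. EIF2AK3 footprints in MT were also under 10 TPM. 7 members overlap another gene of the table (DNAJC10, CANX, PDIA3, PDIA6, SYVN1, DERL2 and SEC61A1) and EIF2AK3 overlaps an antisense RNA, and how shared reads were counted is not known. No paired analysis was possible because each label has 1 library per assay and no replicate numbers.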
